A study of Mus musculus with 18 samples.

Results

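Epididymal fat was compared with liver in male mice on a normal diet, gene by gene, to describe how far the transcriptomes of these metabolic organs differ before any high-fat feeding. The comparison used 6 of the 18 libraries of the series, 3 of epididymal white fat (eWAT, the pad that lies along the epididymis in the male abdomen) and 3 of liver, written here as ND 1 to 3 of each tissue for normal diet. A gene entered when it had 1 FPKM or more in at least 3 of these 6 libraries, which held for 12198 of the 23474 genes in the table. FPKM is fragments per kilobase of transcript, scaled to the mapped fragments of the library, and is a level per length, so levels of different genes can be set side by side.

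Per the labels, all 6 libraries came from male C57BL/6J mice (the strain field itself reads C56BL/6J) that were 17 weeks old and had received the normal diet for 12 weeks from 5 weeks of age. The labels name no transgene or deletion. Both tissues are whole tissue, so each library mixes parenchymal cells with vessel, immune and stromal cells. The labels do not say whether each library is 1 mouse, nor whether equal numbers in the tissues mark the same mouse. The p-values below therefore rest on the spread among these samples alone, and part of it may be technical. The other 12 libraries are the same tissues after a high-fat diet and were used at the end for a repeat of the comparison.

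White fat stores triglyceride in a single large droplet per cell and releases fatty acids and glycerol when hormones call for fuel, and it secretes adipokines such as adiponectin and leptin. Liver makes most plasma proteins, bile acids, urea, ketone bodies and very low density lipoproteins, and clears drugs and hormones. Many steps of sugar and lipid handling exist in both organs but are catalysed by different members of an enzyme family. A shared set of nuclear receptors and C/EBP proteins regulates genes in both, beside factors of one organ such as HNF4A in liver or PPARG in fat.

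The promoters of the genes that differed most carried different short letters, and 4 are shown because they carry the letters searched and their genes are among the 12 that differed most in each direction. All are from RefSeq on build GRCm38.p6, 250 bases ending just before the annotated start, 5′ to 3′ in the direction of the gene. Capitals in the first 3, promoters of the liver genes Alb (serum albumin), Fabp1 (liver fatty acid binding protein) and Gc (vitamin D binding protein), mark GTTAATNNT, the half-site letters bound by factors of the HNF1 family. Capitals in the last, the promoter of Plin1 (perilipin 1, the coat protein of the fat droplet), mark TTGCNNAA, letters of C/EBP sites.
Alb, chr5:90460620-90460869, plus strand: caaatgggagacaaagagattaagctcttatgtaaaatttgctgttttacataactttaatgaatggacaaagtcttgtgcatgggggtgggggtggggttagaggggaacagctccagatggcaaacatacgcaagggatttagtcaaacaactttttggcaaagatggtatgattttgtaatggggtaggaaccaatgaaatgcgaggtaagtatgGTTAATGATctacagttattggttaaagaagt
Fabp1, chr6:71199629-71199878, plus strand: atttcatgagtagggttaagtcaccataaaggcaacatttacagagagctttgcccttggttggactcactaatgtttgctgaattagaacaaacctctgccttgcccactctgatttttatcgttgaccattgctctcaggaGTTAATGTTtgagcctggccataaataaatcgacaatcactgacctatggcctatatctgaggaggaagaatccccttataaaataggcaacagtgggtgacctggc
Gc, chr5:89457899-89458148, minus strand: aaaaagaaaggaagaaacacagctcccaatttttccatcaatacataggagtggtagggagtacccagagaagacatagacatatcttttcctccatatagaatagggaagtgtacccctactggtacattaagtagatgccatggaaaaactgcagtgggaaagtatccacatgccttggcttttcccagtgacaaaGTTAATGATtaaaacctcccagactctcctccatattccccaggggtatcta
Plin1, chr7:79732777-79733026, minus strand: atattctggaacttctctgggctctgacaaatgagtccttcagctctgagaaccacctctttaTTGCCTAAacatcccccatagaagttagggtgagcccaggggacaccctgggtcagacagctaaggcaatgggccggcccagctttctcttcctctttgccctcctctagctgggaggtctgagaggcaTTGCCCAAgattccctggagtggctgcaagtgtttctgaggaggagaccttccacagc

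GTTAATNNT stood in 3 of the 9 promoters found for the 12 liver genes, those printed, and in 0 of the 8 found for the 12 eWAT genes. TTGCNNAA was not particular to fat in these genes: it stood in 2 of the 8 eWAT promoters and 4 of the 9 liver promoters, those of Alb and Fabp1 included. The GTTAATNNT letters began 32 bases before the start in Alb, 52 in Gc and 107 in Fabp1. Searched on both strands, where matches of different motifs may overlap, they stood in 12.2% of 278 promoters of genes called in both fits described below and over 5 log2 units higher in liver. They stood in 1 of 140 promoters of genes as far higher in eWAT, in 1.46% of those of all tested genes and in 2.27% of all 32851 promoters of the same length. TTGCNNAA stood in 20.5% of the liver promoters, 12.9% of the eWAT promoters, 7.71% of those of tested genes and 9.56% of all. The GC box letters GGGCGG ran the other way, with 15.5% of the liver promoters against 50% of the eWAT promoters, 55.9% of those of tested genes and 32.7% of all. The TATA box letters TATAAA stood in 19.1%, 11.4%, 6.71% and 12.4% in the same order. These are matches of letters in groups that this contrast itself chose, given without a test, and a match is not a bound site. A promoter was found for 235 of 303 such liver genes and 112 of 154 such eWAT genes. The 154 include sperm genes such as Tnp1 and Prm1, whose presence in eWAT libraries is described in the next paragraph.

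The 3 liver libraries were close to each other, with correlations of 0.987 to 0.99 over the tested genes on the log2(FPKM + 1) scale, and the eWAT libraries were not. eWAT ND 2 and ND 3 correlated at 0.911, whereas eWAT ND 1 correlated at 0.473 with ND 2 and 0.643 with ND 3. The summed level of a 12-gene testis list (protamines, transition proteins and other sperm genes) was 101659, 169.9 and 3087 FPKM in eWAT ND 1, 2 and 3, against 16.7 to 24.8 in liver, and a 10-gene epididymis list summed to 24942, 10.4 and 19.7 FPKM. So eWAT ND 1 carries testis and epididymis RNA in bulk and ND 3 carries testis RNA at a lower level. The testis sum of ND 2 was the lowest of the eWAT libraries but still above every liver library. The adipocyte markers of ND 1 were the lowest of the eWAT libraries. The comparison was therefore made with all 6 libraries and again with 5, without eWAT ND 1. The epithelial adhesion gene Epcam, picked out after its values were seen, was at 23.3, 0.129 and 16.5 FPKM in eWAT and 0.59, 0.801 and 0.726 in liver, so ND 3 shared epithelial RNA with ND 1. The part of such RNA in the results was not tested.

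**Figure D1:**
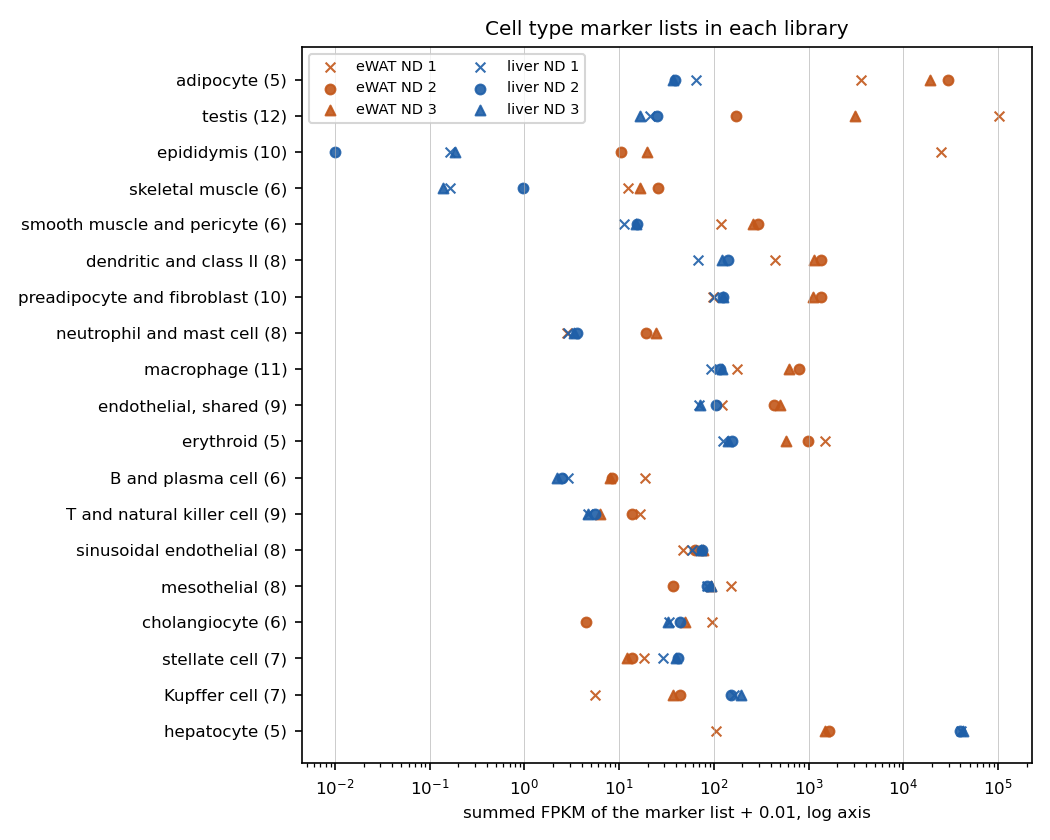
Summed FPKM of each cell type marker list (number of genes in brackets) plus 0.01, on a log axis, in each of the 6 libraries; orange marks eWAT, blue marks liver and the symbol gives the library number. The adipocyte and hepatocyte lists part the tissues in every library, and eWAT ND 1 stands far to the right for the testis and epididymis lists.

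The labelled tissues matched their defining markers in all 6 libraries. Adiponectin (Adipoq), the adipocyte hormone, was at 202, 2781 and 1826 FPKM in eWAT ND 1, 2 and 3 and was listed at 0 in the 3 liver libraries. Albumin was at 23684, 21466 and 26495 FPKM in liver ND 1, 2 and 3 and at 1.13, 8.4 and 5.05 FPKM in eWAT. The 5 hepatocyte markers together summed to 104, 1622 and 1498 FPKM in eWAT. Nearly all of that was Cyp2e1, a cytochrome P450 that fat also expresses. A value of 0 is written as listed at 0, since 2382 genes, among them abundant liver enzymes such as Hpd and Gnmt, are listed at 0 in all 18 libraries and a 0 may be a failed estimate.

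Fat and liver differed over much of the transcriptome, and fewer genes passed when eWAT ND 1 was kept. With 6 libraries, 4013 of the 12198 genes passed an adjusted p of 0.05, or 32.9%, by limma on log2(FPKM + 1) with Benjamini-Hochberg adjustment over all genes tested. Of these, 2961 genes (24.3%) were higher in eWAT and 1052 (8.62%) were higher in liver. Without eWAT ND 1, 8645 genes passed (70.9%), 7023 (57.6%) higher in eWAT and 1622 (13.3%) higher in liver. Every eWAT library lay above every liver library for 42.7% of the tested genes, and the reverse held for 13.4%. All 4013 genes of the first fit also passed in the second in the same direction. The count with 6 libraries fell to 1646, 1728 and 1631 without liver ND 1, 2 or 3 and to 2522 without eWAT ND 3.

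The direction of the larger number changed with the size of the difference. With 5 libraries, 304 genes that passed were over 5 log2 units higher in liver and 162 were as far higher in eWAT. Over 3 log2 units the order was reversed, with 508 in liver and 877 in eWAT (534 and 665 with 6 libraries), and over 1 unit the counts were 1260 and 5038. The eWAT counts include sperm genes: with 5 libraries Tnp1, Tnp2, Prm1 and Prm2 were 7.5, 6.74, 7.02 and 6.97 log2 units higher in eWAT. Of the 12 testis genes, 10 were called higher in eWAT with 5 libraries and 1 in liver (9 and 0 with 6). Liver libraries concentrated their RNA in fewer genes: between 10251 and 10476 genes reached 1 FPKM, against 13865, 12137 and 14213 in eWAT ND 1, 2 and 3. The higher eWAT counts were in ND 1 and ND 3, the libraries with the most testis RNA, and its part was not tested. The 10 most abundant nuclear genes held 20.8 to 22% of nuclear FPKM in liver and 12.7 to 17.4% in eWAT.

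The balance of the directions depended on the scaling. The median log2 difference (eWAT minus liver, log2(FPKM + 1)) of all tested genes was 0.696 with 6 libraries and 0.793 with 5, and median-ratio scaling of the libraries brought it to 0.166 and 0.147. Under that scaling 1734 genes were higher in eWAT and 1561 in liver with 6 libraries, and 4118 (33.8%) and 3019 (24.7%) with 5. Quantile normalization gave 1310 and 1644 with 6 libraries and 3558 (29.2%) and 3174 (26.0%) with 5, and rescaling to the same sum gave 2755 and 854, and 8168 (67.0%) and 1277 (10.5%). A log2 difference below about 0.8 in favour of eWAT is therefore at the median of all genes. Counts under other scalings stand beside the lists below whose balance they turned.

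**Figure D2:**
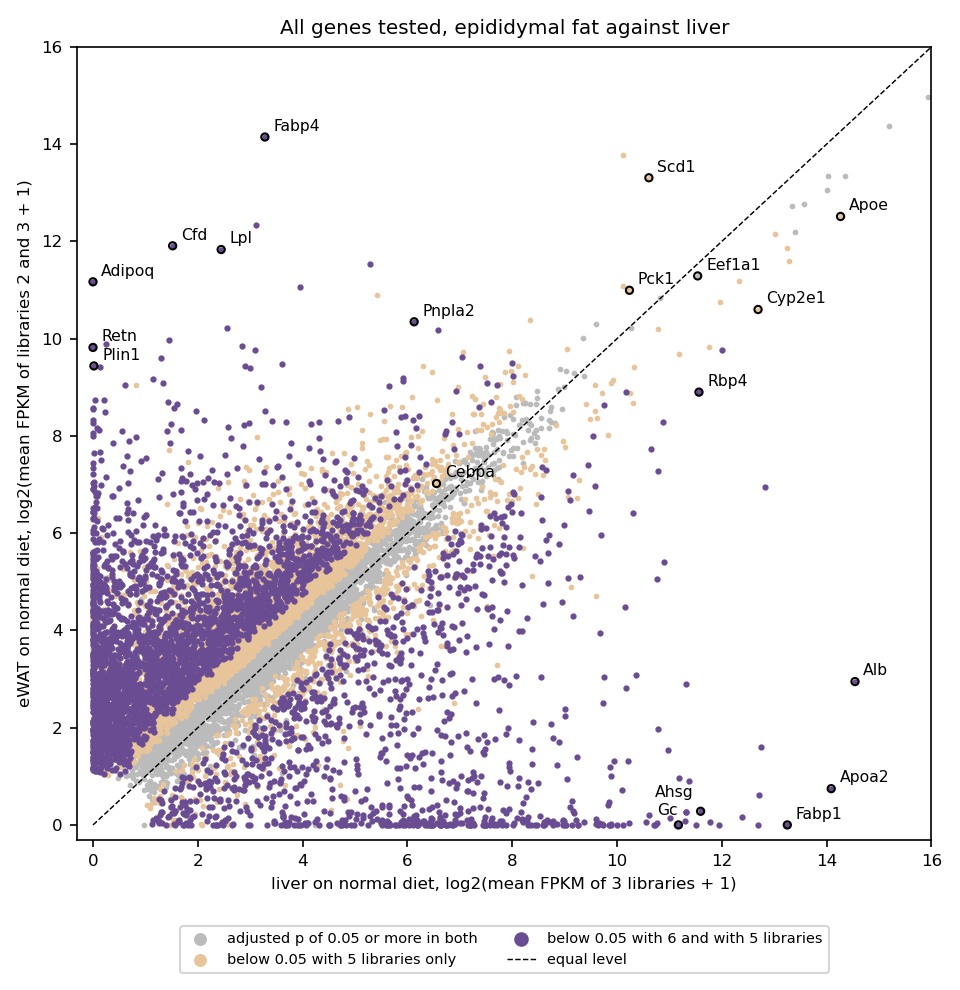
Each point is 1 of the 12198 genes, placed by log2(mean FPKM + 1) of the 3 liver libraries (x axis) and of eWAT ND 2 and ND 3 (y axis); the dashed line marks equal levels. Purple genes passed an adjusted p of 0.05 with 6 and with 5 libraries and tan genes with 5 libraries alone; genes along the bottom edge at high x, such as Fabp1 and Gc, were listed at 0 in eWAT ND 2 and ND 3.

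In the notation used from here on, values in FPKM are listed in the order of libraries 1, 2 and 3, a log2 difference is eWAT minus liver on the log2(FPKM + 1) scale, and p-values are adjusted over all genes tested with limma. Unless 6 libraries are named, the difference is from the 5 libraries without eWAT ND 1. Counts of called list members with 5 libraries stand against 57.6% of all tested genes higher in eWAT and 13.3% higher in liver. With 6 libraries those shares are 24.3% and 8.62%. Of the genes given below, Abca1, Acsl1, Akt1, Akt2, Apoe, Car3, Cebpa, Ces1d, Col18a1, Cyp2e1, Cyp4b1, Dgat2, Fbp1, Fitm1, Fmo2, Fn1, Gpx1, Hp, Igfbp4, Irs1, Irs2, Lyve1, Lyz2, Mat2a, Pck1, Pcx, Pparg, Scd1, Srebf1 and Stab1 passed with 5 libraries and not with 6. Fewer cells of a type and less RNA per cell cannot be told apart in such bulk samples.

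The genes with the largest difference in favour of fat were the adipocyte genes of hormone secretion and droplet coating. Fatty acid binding protein 4 (Fabp4), the fatty acid chaperone of fat cells, was at 3089.9, 23308 and 13012 FPKM in eWAT and at 9.73, 9.89 and 6.53 in liver, with a log2 difference of 10.83 (SE 0.31, adjusted p = 3.71e-06). Adiponectin, listed at 0 in liver and so given no fold, passed with an adjusted p of 9.22e-07 with 5 libraries and 0.000939 with 6. Adipsin (Cfd), the serine protease that starts the alternative complement pathway, was at 3048, 4074 and 3626 FPKM in eWAT and 1.78, 3.11 and 0.72 in liver. Its eWAT ND 1 value was nearer to the other fat libraries than that of Fabp4 was. The eWAT libraries lay above the liver libraries for every one of the 12 genes named in this direction, which was a condition of their choice.

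Resistin (Retn), a hormone of mouse fat cells, stood at 350.0, 1128 and 679 FPKM and was listed at 0 in liver, and the related Retnla, made by macrophages and fat cells, stood at 272, 1218 and 672 FPKM against 0.196, 0.345 and 0 in liver. Lipoprotein lipase (Lpl), which frees fatty acids from circulating triglyceride, was at 205, 4309 and 2990.0 FPKM against 3.69, 4.95 and 4.7. Perilipin 1, whose promoter is printed above, was at 59.1, 682 and 706 FPKM against 0.0356, 0 and 0. In each of these eWAT ND 1 was the lowest fat library, by the widest margin for Lpl and Plin1. The other genes of this set were Sncg (gamma-synuclein), Gsn (gelsolin, an actin-severing protein), Aoc3 (a vascular amine oxidase) and Nnat (neuronatin), with log2 differences of 9.26, 9.24, 8.69 and 8.6, and Apol6, at 31.7, 386 and 369 FPKM in eWAT and listed at 0 in liver.

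The genes furthest in favour of liver were plasma proteins, pheromone carriers and the liver fatty acid chaperone. Apolipoprotein A-II (Apoa2), a protein of high density lipoprotein, was at 15267, 21599 and 15428 FPKM in liver and 5.61, 0.598 and 0.756 in eWAT, with a log2 difference of -13.33 (SE 0.21, adjusted p = 7.14e-07). Fabp1 was at 8707, 10060.5 and 10482 FPKM in liver and 0.507, 0 and 0 in eWAT (adjusted p = 6.05e-07). Here eWAT ND 1 had the highest of 3 very low values, and the liver libraries varied little. Apoa1 (apolipoprotein A-I), Alb, Ahsg (fetuin-A), and Ttr (transthyretin) had log2 differences of -12.23, -11.62, -11.32 and -11.22. Gc, at 2247, 2288 and 2389 FPKM in liver, was listed at 0 in eWAT ND 2 and ND 3 and was at 2.18 FPKM in ND 1.

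The major urinary proteins, pheromone carriers that liver secretes for excretion in urine, were 4 of the 12 genes on this side. Of 10 on the list, 8 passed the filter, and all 8 were higher in liver in both fits, with Mup3 at 6541, 7337 and 6141 FPKM in liver and 0, 0.719 and 0.344 in eWAT. These genes and the fatty acid hydroxylase Cyp4a14 (log2 difference -11.69) have near-identical copies between which reads may have been split, so single values are uncertain.

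**Figure D3:**
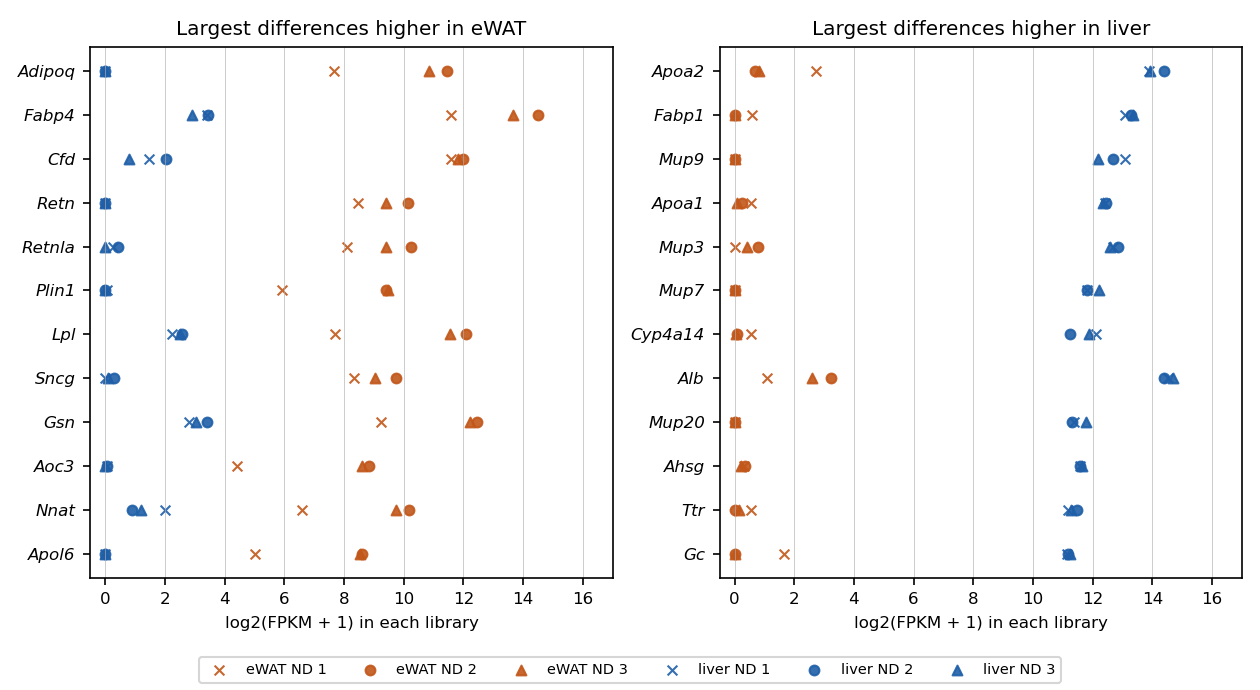
log2(FPKM + 1) in each of the 6 libraries for the 12 genes with the largest difference in each direction; orange marks eWAT, blue marks liver, and crosses, circles and triangles mark libraries 1, 2 and 3. The tissues do not overlap for any of these genes, and eWAT ND 1 is the lowest fat library for each of the 12 genes higher in eWAT.

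Fat and liver used different members of the same enzyme or carrier family at most steps. Of 28 pairs set up from textbook roles, 26 had both members above 0 in a library. The ratio of the fat-type to the liver-type member within a library, taken on FPKM + 1, was higher in every eWAT library than in every liver library in 25 of them. The fat-type member was higher in eWAT in 22 pairs and the liver-type member higher in liver in 21, both at once in 17 (18, 19 and 11 with 6 libraries), against the 57.6% and 13.3% of all genes that passed in those directions. The members were chosen with results of these data known, so the counts are a description.

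In glucose entry and glycolysis, the insulin-regulated transporter Slc2a4 (GLUT4) was at 2.54, 62.7 and 36 FPKM in eWAT and 0.0473, 0.0825 and 0.0277 in liver, and the low-affinity transporter Slc2a2 (GLUT2) at 70, 83.9 and 106 FPKM in liver and 0.137, 0.59 and 0.677 in eWAT. The log2 ratio of Slc2a4 to Slc2a2 within a library was 1.64, 5.32 and 4.46 in eWAT and -6.08, -6.29 and -6.7 in liver. Neither member overlapped between the tissues, and ND 1 had the lowest ratio of the eWAT libraries. Pyruvate kinase showed Pkm at 220.1, 136 and 161 FPKM in eWAT and 3.98, 5.86 and 4.82 in liver, and Pklr at 1.15, 0.044 and 13.4 in eWAT and 31.5, 34.5 and 42.2 in liver. For Pklr, eWAT ND 3 was the highest fat library, by over 10-fold against ND 2.

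Other steps of sugar use were divided to differing degrees. Hexokinase 2 (Hk2) was at 11.9, 14.5 and 23.1 FPKM in eWAT and 0.127, 0.333 and 0.173 in liver. Of the phosphofructokinases, Pfkl, named for liver, was higher in eWAT, at 19.7, 35.1 and 53.4 FPKM against 7.44, 8.15 and 7.59, and Pfkp was higher there by more, at 25.3, 39.2 and 73.5 against 0.836, 1.19 and 1.06. Pfkfb3, which makes the activator fructose 2,6-bisphosphate, was at 23.4, 332 and 399.9 FPKM in eWAT and 2.07, 1.47 and 5.14 in liver. Its liver counterpart Pfkfb1 was at 3.66, 25 and 15.9 and 15.7, 21.6 and 26.4 FPKM and did not pass (log2 difference -0.05, 95% interval -0.76 to 0.65). The glycogen synthases Gys1 and Gys2 did divide, with log2 differences of 4.05 and -4.73.

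Fatty acid and glycerol transport were divided between the tissues at each pair tested. The log2 ratio of Fabp4 to Fabp1 was 11, 14.51 and 13.67 in the eWAT libraries and -9.67, -9.85 and -10.44 in the liver libraries. Lpl against hepatic lipase (Lipc) gave 6.84, 12.07 and 11.55 and -4.43, -4.03 and -4.12. The transport protein Slc27a1 was at 70.6, 233 and 261 FPKM in eWAT and 17.2, 23.4 and 16.3 in liver, whereas Slc27a5, the bile acid and fatty acyl-CoA ligase, was at 387, 439 and 390.3 FPKM in liver and at most 0.634 in eWAT. The glycerol channels Aqp7 and Aqp9 are the exit from fat and the entry to liver. Aqp7 was at 60.4, 126 and 99.9 FPKM in eWAT and at most 0.164 in liver, and Aqp9 was at 264, 267 and 276 FPKM in liver and 20, 2.08 and 12.7 in eWAT.

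Nuclear receptors, catecholamine receptors and droplet coats were paired too. Pparg, the master regulator of fat cells, was at 3.36, 92.5 and 71.5 FPKM in eWAT and 5.3, 6.96 and 5.79 in liver, and Ppara, which drives fatty acid oxidation genes, was at 0.389, 1.92 and 3.94 and 66.7, 41 and 73.9 FPKM. In eWAT ND 1 Pparg was below every liver library, and its call was lost with 6 libraries (adjusted p = 0.198). The lipolytic adrenergic receptor Adrb3 was at 17.8, 282 and 331 FPKM in eWAT and 7.57, 8.85 and 4.3 in liver, and Adra1b, the liver receptor that raises calcium, at 0.319, 0.919 and 0.95 and 19.5, 27.1 and 19.4 FPKM. Plin1 against Plin5, the perilipin of oxidative cells, gave log2 ratios of 3.63, 5.94 and 5.19 in eWAT and -5.91, -5.57 and -5.4 in liver. Connexins Gja1 and Gjb1, methionine adenosyltransferases Mat2a and Mat1a and the selenoprotein peroxidases Gpx3 and Gpx1 had ratios without overlap as well.

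Some pairs did not follow their textbook roles. Elongase Elovl3, known from brown fat, was at 208, 179 and 137 FPKM in liver and at most 0.22 in eWAT, so with Elovl2 it formed the pair whose ratios overlapped. Igfbp4 was listed as the fat member against Igfbp1 and was higher in liver, at 476, 537 and 535 FPKM against 25.8, 239 and 195. Scd1, listed as the liver desaturase, was higher in eWAT, at 306, 11074 and 9242 FPKM against 924, 2015 and 1745 (log2 difference 2.77, adjusted p = 0.00161). With 6 libraries Scd1 did not pass (adjusted p = 0.595), and eWAT ND 1 lay below every liver library. Arg2 did not pass the filter, Lpin2 was listed at 0 in every library, and Cpt1b and Cox7a2 passed in neither fit.

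**Figure D4:**
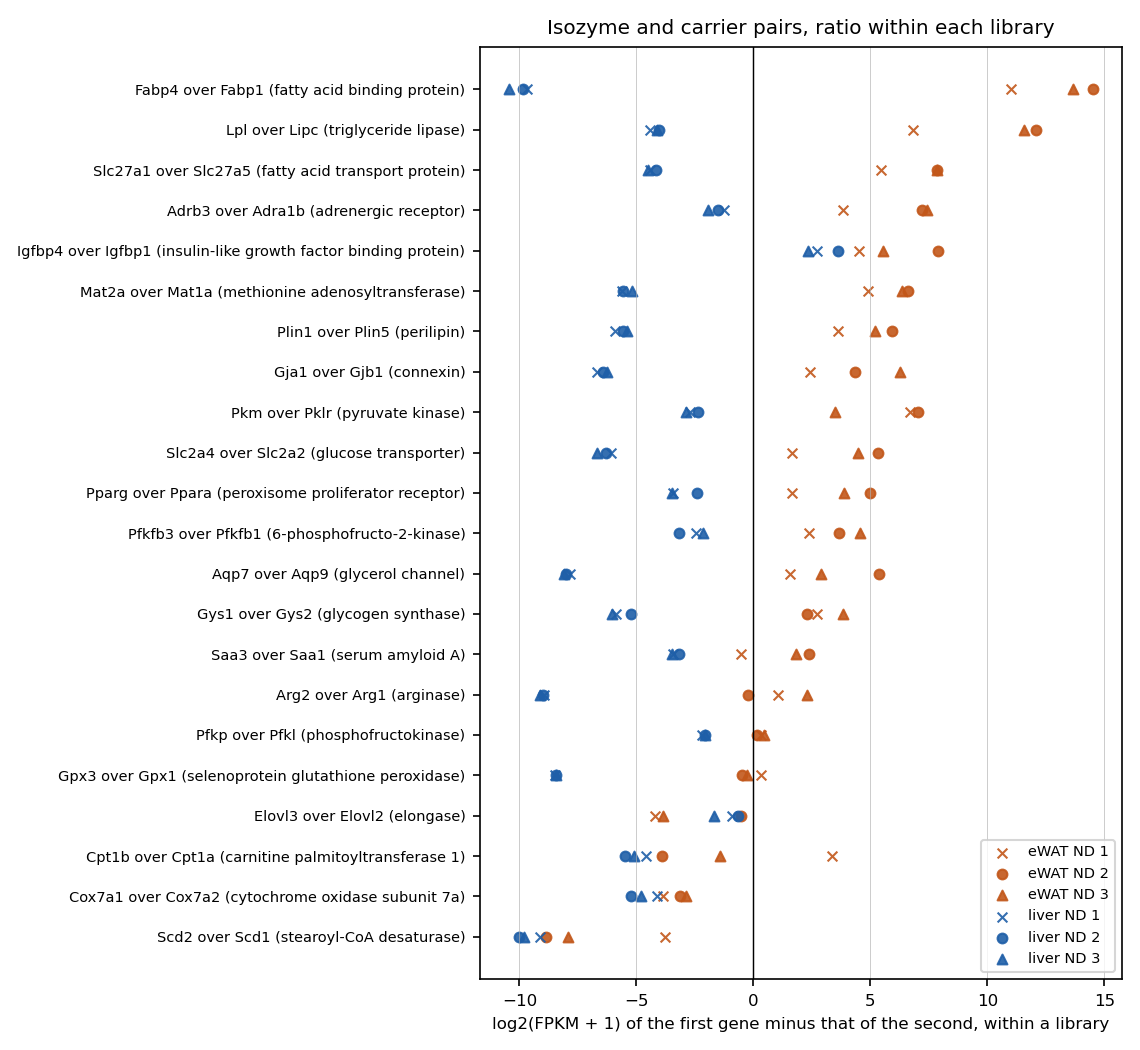
For 22 of the 26 pairs, log2(FPKM + 1) of the fat-type gene minus that of the liver-type gene within each library; orange marks eWAT, blue marks liver, and crosses, circles and triangles mark libraries 1, 2 and 3. The orange points lie to the right of the blue points in every pair shown except Elovl3 over Elovl2.

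Genes of adipocyte identity were mostly higher in fat. Of 30 genes on the identity list, 26 passed the filter, and 25 of those were higher in eWAT (20 with 6 libraries). The median log2 difference was 6.44, against 0.793 over all genes. The gene higher in liver was Rbp4, the retinol carrier of plasma, at 71.1, 568 and 387 FPKM in eWAT and 2854, 3583 and 2653 in liver (log2 difference -2.68, adjusted p = 0.000375). Leptin (Lep), the satiety hormone, was at 7.97, 323 and 317 FPKM in eWAT and listed at 0 in the 3 liver libraries. Carbonic anhydrase 3 (Car3) was abundant in both tissues, at 252, 17765 and 10419.6 FPKM in eWAT and 669, 1620.2 and 1040.3 in liver, and eWAT ND 1 fell below the liver libraries.

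In lipolysis and droplet proteins, 15 of 22 genes were higher in eWAT and 6 in liver (11 and 5 with 6 libraries), against 57.6% and 13.3% of all tested genes. The triglyceride lipase Pnpla2 was at 284, 1416 and 1189 FPKM in eWAT and 72, 63 and 72 in liver, and hormone-sensitive lipase (Lipe) at 278, 714 and 677 and 6.2, 6.96 and 6.26 FPKM. The droplet-fusing protein Cidec was at 182, 2802 and 3144 FPKM in eWAT and 55, 28.8 and 30.2 in liver. Liver had its own set: the droplet proteins Plin2, Plin5, Cideb, Fitm1, Hsd17b11 and Hsd17b13 were higher there, with Hsd17b13 at 264, 248 and 268 FPKM in liver and 0, 0.0617 and 0 in eWAT. Plin2 was at 987, 535 and 705 FPKM in liver and 58.8, 233 and 275 in eWAT. Plin2 and Plin5 thus lay on the opposite side from Plin1 and Plin4 (Plin4 log2 difference 7.66).

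Fatty acid synthesis had members on both sides, with the polyunsaturated branch higher in liver. Of 19 lipogenic genes, 13 were higher in eWAT and 5 in liver (6 and 5 with 6 libraries), against 57.6% and 13.3% of all tested genes. Under median-ratio scaling the counts were 11 and 6 with 5 libraries and 2 and 5 with 6, and with 6 libraries they were 1 and 5 under quantile normalization and 2 and 4 at the same sum. Fatty acid synthase (Fasn) was at 34.5, 333 and 287 FPKM in eWAT and 15.5, 21.2 and 20.3 in liver (log2 difference 3.97, SE 0.18, adjusted p = 2.03e-05). Elovl5 and Fads2, which elongate and desaturate polyunsaturated fatty acids, were higher in liver, with Fads2 at 378, 340.3 and 516 FPKM against 22, 6.76 and 54.1 and Elovl5 at 522, 436 and 473 against 5.3, 46.5 and 61. The other 3 genes higher in liver were Fads1, Elovl6 and Mlxipl, the carbohydrate-responsive factor ChREBP, at 169, 208 and 177 FPKM in liver and 5.2, 14.5 and 26.8 in eWAT. Srebf1, the sterol-responsive factor of lipogenesis, was at 10.9, 96.1 and 139 FPKM in eWAT and 18.8, 23.2 and 22.7 in liver, so these regulators pointed in opposite directions.

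Triglyceride assembly and fatty acid uptake were split between the tissues. In glyceride synthesis 9 of 20 tested genes (24 listed) were higher in eWAT and 6 in liver, against 57.6% and 13.3% of all tested genes. The counts were 4 and 3 with 6 libraries, and 6 and 8 with 5 and 3 and 4 with 6 under median-ratio scaling. Dgat2, which adds the last fatty acid to triglyceride, was at 112, 363 and 335 FPKM in eWAT and 139.5, 190.2 and 177 in liver, and its log2 difference of 1.05 became 0.29 (adjusted p = 0.29) under median-ratio scaling. Acyl-CoA synthetase Acsl1 was at 132, 477 and 461 and 979, 617 and 908 FPKM, slightly higher in liver (log2 difference -0.8, adjusted p = 0.0278). Lipin 1 (Lpin1), a phosphatidate phosphatase, was at 76.3, 78.6 and 112 FPKM in eWAT and 2.04, 2.61 and 9.12 in liver, above every liver library in all 3 fat libraries. Of the uptake and binding list, 8 of 19 tested genes (20 listed) were higher in eWAT and 9 in liver (4 and 8 with 6 libraries). The first is a share below the 57.6% of all tested genes.

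Fatty acid oxidation pointed to liver, with no gene called higher in fat by limma in either fit. Of 27 genes, 21 were higher in liver (13 with 6 libraries), and at an unadjusted p under 0.05 the count higher in eWAT was 0 with 6 libraries and 0 with 5. With 5 libraries, 1 gene was called higher in eWAT under quantile normalization and 2 at the same sum. The peroxisomal genes led: Ehhadh, the bifunctional enzyme, was at 1612, 612 and 1197 FPKM in liver and 0.912, 24.4 and 18.4 in eWAT, and Acaa1b, a thiolase, at 2176, 1861 and 1721 and 10.3, 47.8 and 35 FPKM. The gatekeeper of mitochondrial entry, Cpt1a, was at 262, 254 and 265 FPKM in liver and 7.22, 39.4 and 48.3 in eWAT. Its muscle-type counterpart Cpt1b was at 84.7, 1.73 and 17.4 FPKM in eWAT, highest in the 2 libraries with the most testis RNA, and 9.85, 4.69 and 6.75 in liver; the part of that RNA was not tested.

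Ketone genes divided into makers and users. Bdh1, which makes 3-hydroxybutyrate, was at 230.1, 176 and 249 FPKM in liver and 3.38, 0.186 and 1.52 in eWAT (log2 difference -6.97, adjusted p = 2.82e-05), and Acat1 was higher in liver too. On the other side, Oxct1, the transferase that tissues need to burn ketone bodies, was at 12.3, 172 and 134 FPKM in eWAT and 0.632, 0.686 and 0.599 in liver, and Aacs, which turns acetoacetate back into acetoacetyl-CoA in the cytosol, had a log2 difference of 3.67. These last 2 were the only genes of the 8 called higher in eWAT, in both fits.

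Genes of glucose production and fructose use were mostly higher in liver, and Pck1 and Pcx, of the first steps, had no fixed direction. Of 14 genes of gluconeogenesis and fructose use, 10 were higher in liver and 3 in eWAT (8 and 1 with 6 libraries, and 10 and 1 with 5 under median-ratio scaling). Pck1, phosphoenolpyruvate carboxykinase, which also feeds glycerol synthesis in fat, was at 77.2, 2129.8 and 1954 FPKM in eWAT and 1190.3, 917 and 1515 in liver. Pcx, pyruvate carboxylase, was at 28, 283 and 321 and 199, 160.5 and 222 FPKM. The log2 differences of Pck1 and Pcx, 0.79 and 0.65, lay near the median of all genes, became 0.03 and -0.11 under median-ratio scaling, and turned to -0.78 and -0.48 with eWAT ND 1. The last steps were liver genes: Fbp1 was at 717, 792 and 803 FPKM in liver and 199, 1.35 and 49.2 in eWAT, and G6pc, which releases free glucose, at 169, 124 and 224 and 0.338, 0.161 and 0.78 FPKM.

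Genes of the urea cycle with its feeding amino acid pathways, and of bile acids, were nearly all higher in liver. All but 1 of 25 tested genes of the urea cycle and amino acid catabolism (27 listed) were higher in liver in both fits. The median log2 difference was -6.46. Bhmt, which remethylates homocysteine, was at 2214, 2752 and 2051 FPKM in liver and 7.19, 0.0933 and 1.79 in eWAT, and Ass1 of the urea cycle at 883, 828 and 835 and 6.26, 3.07 and 6.34 FPKM. Glutamine synthetase (Glul) was the exception at 321, 365 and 656 FPKM in eWAT and 506, 575 and 432 in liver, with a 95% interval of the log2 difference of -0.75 to 0.69. All 20 genes of bile acid synthesis and transport were higher in liver in both fits. The 12-alpha-hydroxylase Cyp8b1 was at 585, 575 and 558 FPKM in liver and at most 0.262 in eWAT, and Hsd3b7 was still at 7.64, 69.4 and 83.7 FPKM in eWAT.

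Drug and xenobiotic enzymes were liver genes with fat exceptions. Of 34 genes, 26 were higher in liver and 5 in eWAT (24 and 2 with 6 libraries). Cyp2e1, which oxidises ethanol, was at 6414, 7218 and 6231 FPKM in liver and 102, 1612 and 1492 in eWAT, so it ranked among abundant fat transcripts although it was lower there (log2 difference -2.09, adjusted p = 0.000659). The carboxylesterase Ces1d, a triglyceride hydrolase, was higher in eWAT, at 96.6, 1542 and 1113 FPKM against 259, 391 and 325. The other 4 genes higher in eWAT were Cyp1b1, Cyp4b1, Fmo2 and Gstm2. Both Ces1d and Cyp2e1 were far lower in eWAT ND 1 than in ND 2 and ND 3.

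Plasma proteins, clotting factors and apolipoproteins were mostly higher in liver, and a few complement and lipoprotein genes were higher in fat. All 28 listed secreted proteins were higher in liver (27 with 6 libraries), with a median log2 difference of -9.58. In coagulation and complement 29 of 38 tested genes were higher in liver. The fibrinogen chain Fgb was at 1869, 1515 and 1829.8 FPKM in liver and 0.0544, 0.0696 and 0 in eWAT. The 4 genes higher in eWAT in both fits were Cfd and the 3 chains of C1q, the starter of the classical pathway, which macrophages make. Complement C3, the substrate downstream of adipsin, was at 1792, 1357 and 1678 FPKM in liver and 22.9, 187 and 234 in eWAT.

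Of 18 tested genes of lipoprotein assembly, 15 were higher in liver and 2 in eWAT. Apoe, the ligand for remnant uptake, was abundant in both, at 20235, 22308 and 16645 FPKM in liver and 2303, 5592 and 6109.7 in eWAT. The genes higher in eWAT were the cholesterol exporters Abca1 and Abcg1, and Abca1 did not pass under median-ratio scaling (log2 difference 0.42, adjusted p = 0.0792). Acute phase genes were also split: haptoglobin (Hp) was at 219, 1181 and 1159 FPKM in eWAT and 1735, 1889.6 and 1695 in liver, while hepcidin (Hamp), the iron hormone, was at 474, 758 and 318 FPKM in liver and listed at 0 in the 3 eWAT libraries. The small Hp difference (-0.6) turned to 0.56 under quantile normalization.

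Transcription factors of liver were mostly higher in liver, but the factors of fat were partly shared. Of 17 tested liver factors, 14 were higher in liver in both fits, and 2 were higher in eWAT (1 with 6 libraries). The xenobiotic receptor Nr1i3 (CAR) was at 173, 243 and 253 FPKM in liver and 0.0867, 0.0195 and 0.0948 in eWAT. Hnf4a was at 127, 114 and 159 FPKM in liver and 0.553, 0.124 and 11.4 in eWAT, with ND 3 the highest of the fat libraries. Of 25 listed factors of fat cell formation and position, 15 passed the filter and 9 were higher in eWAT and 1 in liver (6 and 1 with 6 libraries). The first is near the 57.6% of all tested genes, and median-ratio scaling gave 7 and 5.

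Cebpa, the C/EBP factor that both organs need, was at 16.6, 128 and 129 FPKM in eWAT and 85.9, 104 and 89.5 in liver. Its log2 difference was 0.47 with 5 libraries, -0.49 with 6 and -0.28 with 5 under median-ratio scaling, so its direction was not fixed. The oxysterol receptor Nr1h3 (LXR alpha) was at 25.8, 58.9 and 58.6 and 58, 67.8 and 61.8 FPKM and passed in neither fit. Klf15, a factor of fasting metabolism, was the gene higher in liver, at 49.2, 53.5 and 85.6 FPKM against 2.67, 12 and 14.7. At the other end, Hoxc8, a positional factor, was at 10.5, 56.6 and 38.6 FPKM in eWAT and listed at 0 in liver. Ebf1 (log2 difference 5.41) was on the same side.

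The hormone axes were divided by receptor and binding protein. Of 23 genes of insulin and glucagon signalling, 17 were higher in eWAT and 6 in liver (5 and 5 with 6 libraries), against 57.6% and 13.3% of all tested genes. Under median-ratio scaling the counts were 12 and 6 with 5 libraries, against 33.8% and 24.7% of all genes, and 4 and 6 with 6. The glucagon receptor Gcgr was at 233, 295 and 214 FPKM in liver and 0.203, 0.996 and 1.31 in eWAT. The growth factor Igf1 was at 245, 227 and 203 FPKM in liver and 9.05, 56.4 and 49.1 in eWAT, and its carrier Igfbp2 at 517, 489 and 425 and 18.7, 1.29 and 3.22 FPKM. The genes higher in liver were thus secreted proteins or their modulators and the glucagon receptor (Igfbp1, Igfbp2, Igfbp4, Igf1, Gcgr and the adaptor Grb14). Those higher in eWAT included the insulin receptor substrates Irs1 and Irs2 and the kinases Akt1 and Akt2.

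Stromal and matrix genes were mostly higher in fat. Of 29 matrix genes, 26 were higher in eWAT (17 with 6 libraries), with a median log2 difference of 4.62. Sparc, a collagen-binding protein, was at 185, 2103 and 2175 FPKM in eWAT and 11.4, 16 and 15.9 in liver. Nidogen 1 (Nid1), of the basement membrane, was at 7.24, 299 and 304 FPKM in eWAT and 1.74, 1.67 and 2.02 in liver. The 3 genes higher in liver were vitronectin (Vtn), fibronectin (Fn1) and Col18a1, the first of them at 855, 913 and 831 FPKM in liver and 2.89, 7.78 and 6.62 in eWAT. Fibroblast markers mostly pointed the same way, with 7 of 8 tested (10 listed) higher in eWAT and 1 in liver (4 and 1 with 6 libraries). Dpt was at 17.6, 299 and 258 FPKM in eWAT against 1.98, 2.71 and 1.87 in liver.

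Markers of immune and vessel cells were found on both sides. Of 11 macrophage markers, 10 were higher in eWAT (3 with 6 libraries, 8 with 5 under median-ratio scaling), with lysozyme (Lyz2) at 39.7, 430.3 and 321 FPKM in eWAT and 24.9, 29.9 and 29.7 in liver. Of 6 tested markers of Kupffer cells, the liver macrophages, 5 were higher in liver (3 with 6 libraries), and Clec4f, which defines them, was at 26.4, 32.7 and 32.6 FPKM in liver and listed at 0 in the 3 eWAT libraries. The antigen presenting chain Cd74 was at 149, 565 and 472 FPKM in eWAT and 30.6, 61.6 and 54.6 in liver. All 9 general endothelial markers were higher in eWAT (2 with 6 libraries). Of all tested genes, 57.6% were higher in eWAT with 5 libraries and 24.3% with 6. The macrophage and endothelial counts with 6 libraries thus lay near the share of all genes. The list of the liver sinusoids went both ways, with 2 of 7 tested genes higher in eWAT and 3 in liver (0 and 3 with 6 libraries). Oit3 was at 5.61, 7.56 and 6.58 FPKM in liver and 0.387, 0.316 and 0.248 in eWAT, while Lyve1 and Stab1 had log2 differences of 1.64 and 0.65, the latter -0.07 under median-ratio scaling. Stellate cell markers went both ways too, with 4 of 6 tested higher in liver and 1 in eWAT, in both fits. Colec11 was among those higher in liver, at 12.1, 18.3 and 17.1 FPKM against 0.4, 1.11 and 1.03.

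Smooth muscle and mesothelial markers were mostly higher in eWAT, 5 of 5 and 6 of 7 tested (4 and 5 with 6 libraries), against 57.6% of all tested genes (24.3% with 6). Acta2, the actin of smooth muscle, was at 63.6, 179.6 and 153 FPKM in eWAT and 0.291, 0.913 and 0.254 in liver. The summed mesothelial list overlapped, at 153, 36.8 and 92.7 FPKM in eWAT and 84.4 to 93 in liver. Most of the liver sum was Krt8, at 81.8, 83.1 and 90.6 FPKM. Haemoglobin genes pointed to fat as well. Of 5 erythroid genes, 4 were higher in eWAT and 1 in liver (4 and 0 with 6 libraries). Hbb-bs, which has a near-identical copy and so an uncertain value, was at 439.8, 483 and 257 FPKM in eWAT and 41.5, 48.2 and 48.5 in liver. These marker levels moved with the gene groups described above, and their part in those results was not tested. T cell markers were near the lower limit, with 2 of 9 past the filter and 0 called by limma in either fit, also 0 at an unadjusted p under 0.05.

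Nuclear respiratory chain, ribosomal protein and proteasome genes had median log2 differences of -0.34, 0.38 and -0.04, and the balance of their calls depended on the scaling. The respiratory chain median lay below that of all tested genes under each scaling. It was -0.34 against 0.793 as deposited and -1.09 against 0.147 under median-ratio scaling. Quantile normalization gave -0.13 against 0.064, and the same sum gave 0.02 against 1.109. Of 44 tested nuclear genes of the respiratory chain, 2 were higher in eWAT and 13 in liver (0 and 1 with 6 libraries), and with 5 libraries 0 and 30 under median-ratio scaling and 13 and 7 at the same sum. The beta subunit of ATP synthase, Atp5b, was at 1029, 929 and 1608 FPKM in eWAT and 890.0, 715 and 732 in liver. Mitochondrially encoded genes took 27.7 to 33.2% of all FPKM in liver and 1.72, 24.4 and 15.2% in eWAT ND 1, 2 and 3. Ribosomal protein genes had no fixed direction: 13 of 44 tested were higher in eWAT and 0 in liver as deposited, the first a share below the 57.6% of all tested genes, and 3 and 0 with 6 libraries. With 5 libraries the counts were 0 and 7 under median-ratio scaling, 32 and 0 under quantile normalization and 38 and 0 at the same sum. Proteasome genes went from 1 higher in eWAT and 6 in liver to 0 and 20 under median-ratio scaling and 7 and 1 at the same sum.

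For 2789 genes the 95% interval of the log2 difference lay within 1 of 0, and 2312 of these passed in neither fit. The most abundant were Eef1a1 and Eef2 (translation elongation factors), B2m (the light chain of class I antigens), Fth1 (ferritin heavy chain), Tpt1 and Rpl10. Eef1a1 was at 1039, 2593 and 2419 FPKM in eWAT and 2857, 3181 and 2897 in liver, and B2m at 192, 2367 and 1307 and 1560.2, 2064 and 1790.2 FPKM. Their intervals were -0.78 to 0.29 and -0.81 to 0.76.

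**Figure D5:**
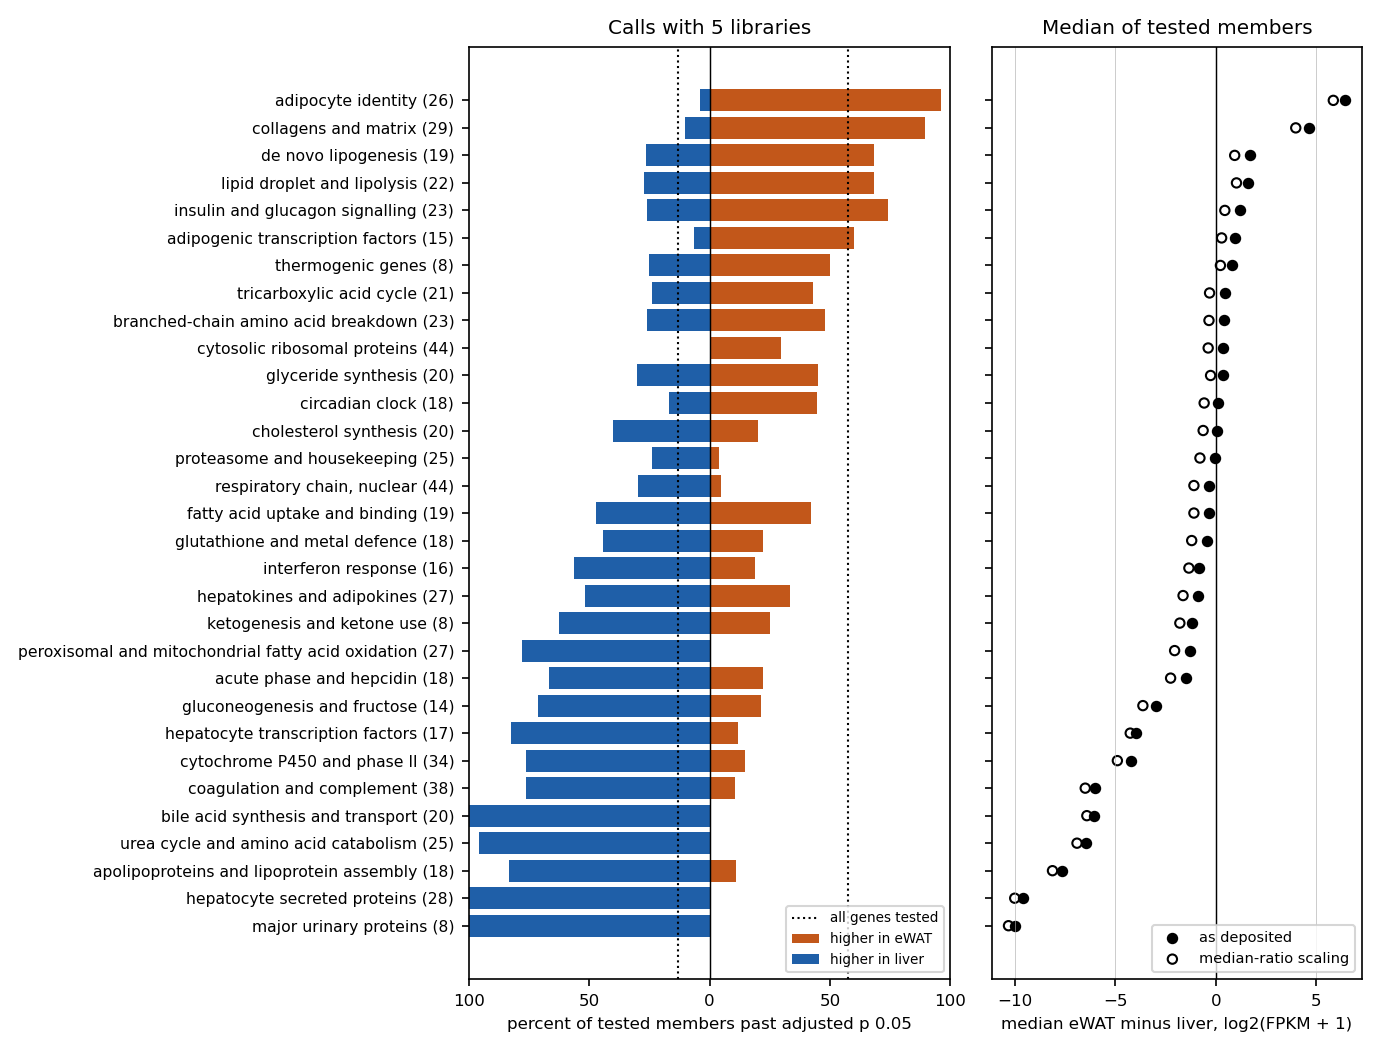
Left, the percent of the tested members of each pathway list (number in brackets) higher in eWAT (orange, to the right) or higher in liver (blue, to the left) at an adjusted p of 0.05 with 5 libraries; the dotted lines mark the 57.6% and 13.3% of all tested genes. Right, the median log2(FPKM + 1) difference of each list as deposited (filled) and under median-ratio scaling (open); lists near 0, such as ribosomal proteins and the clock, change sign between the scalings.

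The tissue difference held in mice on a high-fat diet, whose 6 eWAT and 6 liver libraries share no sample with the normal-diet comparison. Of the 2961 genes higher in eWAT with 6 libraries on normal diet, 2685 (90.7%) had every high-fat eWAT library above every high-fat liver library, against 47.7% of all tested genes. Of the 1052 genes higher in liver, 937 (89.1%) had the reverse, against 12.7% of all. For the calls with 5 libraries the shares were 74% and 78.3%. The testis list summed to 11.5 to 17166 FPKM (median 40.7) over those eWAT libraries and the adipocyte list to 4902 to 23442 FPKM.

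The filter itself sets part of the count. Of the tested genes, 1519 reached 1 FPKM in all 3 eWAT libraries and no liver library and 346 the reverse, so they entered through the tissue where they are high. Exactly 3 libraries at 1 FPKM were reached by 2009 genes, just inside the filter, and exactly 2 by 2298, just outside. Among the 8581 genes at 1 FPKM or more in all 6 libraries, 4776 were higher in eWAT and 871 in liver with 5 libraries, and 1501 and 409 with 6.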

How the data were processed

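RNA was sequenced from eWAT and liver with a TruSeq mRNA kit after TRIzol extraction, per the labels' protocols. The authors deposited FPKM per gene for 18 libraries, and CASAVA 1.8.2, STAR 2.4.0 and Cufflinks 2.1.1 are listed in the submitters' processing notes without roles. The genome build, annotation and strand setting were not given in the sources used here, and no counts were used, so depth in reads is unknown. Symbols were taken from GENCODE M21 for 22671 of the 23474 gene IDs.

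The 6 normal-diet libraries were compared with limma 3.58.1 in R 4.3.3 on log2(FPKM + 1) with a variance trend, two-sided, with Benjamini-Hochberg adjustment over the 12198 genes at 1 FPKM or more in 3 libraries. A fold change on this scale understates the change of low genes. The fit was repeated without eWAT ND 1. Alternatives were another pseudocount (0.1 FPKM), filter, normalization, variance model, library weights, a replicate block, all groups in the fit, and each library left out. On simulated data of 12198 genes with 200 changed, the fit with 5 libraries recovered 93.4% of changes of 3 log2 units and 36.2% of those of 1, and the fit with 6 recovered 44% and 1.1%. The changed genes were drawn from the more abundant ones, and each gene had the same spread in both tissues. In the real data far more genes differed and eWAT varied more than liver. These shares therefore do not give the power of the fits on the real data.

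The members and lists were chosen with earlier results of these data known. Named were the 12 genes of largest difference in each direction, the pairs, the 4 most abundant genes of each list, 6 near-equal genes and the 10 most abundant genes of each tissue. Aacs, Abca1, Abcg1, Akt1, Akt2, Cideb, Col18a1, Cyp1b1, Cyp4b1, Ebf1, Elovl6, Fads1, Fitm1, Fmo2, Fn1, G6pc, Grb14, Gstm2, Hoxc8, Hsd17b11, Hsd17b13, Irs1, Irs2, Lep, Lipe, Mlxipl and Oxct1 were named after their values were seen. Promoters were matched by symbol to RefSeq (GRCm38.p6). Some members of the pairs and lists enter the counts and are not reported by name here.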

Additional observations from a re-analysis of the deposited data

How the results depend on the processing

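The count of genes past the threshold with 6 libraries moved from 4013 to 7461 with library weights and to 6498 with all groups in the fit, and ranged from 1631 (without liver ND 3) to 8645 (without eWAT ND 1) when 1 library was left out. With 5 libraries it was 5716 in place of 8645 with a filter of 5 FPKM, where fewer genes were tested, and 7176 to 8887 when 1 library was left out. A fit that leaves eWAT with 1 library assumes that it varies like the liver libraries. The other alternatives gave 2729 to 4339 genes with 6 libraries and 6732 to 9445 with 5.

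Some genes named above turned direction. With 5 libraries, median-ratio scaling gave log2 differences of -0.28 for Cebpa, -0.66 for Eef2, -0.11 for Pcx and -0.07 for Stab1. Quantile normalization gave 0.94 for B2m, 0.75 for Eef1a1, 0.97 for Fth1, 0.0 for Gpx1, 0.56 for Hp, -0.3 for Irs1 and 0.59 for Tpt1. With 6 libraries and 1 left out, Cebpa ranged from -0.97 to 0.47, Pck1 from -1.6 to 0.79 and Pcx from -1.09 to 0.65, each positive without eWAT ND 1. The cause was not tested. With 5 libraries, Acsl1, Apoe, Cebpa, Gpx1, Hp, Irs1, Pck1, Pcx, Pklr, Spp1 and Stab1 each lost their call when a certain single library was left out, with adjusted p-values up to 0.139.

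No label says that equal numbers mark the same mouse, so the numbers were not taken as pairs. Same-numbered libraries of the tissues had deviations that correlated at -0.015, -0.133 and 0.248, and differently numbered ones at -0.245 to 0.199. With so few libraries, and eWAT ND 1 far from the others, these values cannot decide whether mice were shared. With the replicate number as a block, 2857 genes passed with 6 libraries and 6857 with 5. Depth in reads is unknown, so counting error at low FPKM could not be separated from other spread.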

Other observations

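Several gene groups had members on both sides. The counts here stand against 57.6% of all tested genes higher in eWAT and 13.3% higher in liver with 5 libraries. With 6 libraries these shares were 24.3% and 8.62%, and with 5 under median-ratio scaling 33.8% and 24.7%. Of 27 tested hepatokines and adipokines (30 listed), 9 were higher in eWAT and 14 in liver with 5 libraries, and of 18 acute phase genes 4 and 12. In cholesterol synthesis 4 of 20 tested genes were higher in eWAT and 8 in liver, and in glutathione and metal defence 4 and 8 of 18. Of 16 interferon response genes, 9 were higher in liver and 3 in eWAT, 13 and 2 under median-ratio scaling. With 6 libraries the counts for these 5 lists, in the order given and eWAT first, were 6 and 10, 1 and 8, 2 and 6, 2 and 2, and 0 and 8. Of 14 thermogenic genes 8 passed the filter, 4 of them higher in eWAT and 2 in liver.

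Some directions turned with the scaling. Circadian clock genes (18 tested) went from 8 higher in eWAT and 3 in liver with 5 libraries as deposited (2 and 3 with 6) to 0 and 7 under median-ratio scaling, and the first share is below the 57.6% of all tested genes. In the same order, branched-chain amino acid breakdown (23 tested) went from 11 and 6 (1 and 3 with 6 libraries) to 2 and 8, and the tricarboxylic acid cycle (21 tested) from 9 and 5 (0 and 2 with 6 libraries) to 5 and 8.

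Among cell markers, 4 of 4 tested class II genes (8 listed) were higher in eWAT, against 57.6% of all tested genes. Of 6 listed B cell genes 2 were tested and 2 were higher in eWAT, 1 under median-ratio scaling. Of 4 tested bile duct genes 2 were higher in eWAT and 1, Spp1, in liver (log2 difference -3.31, adjusted p = 0.015 with limma), and 1 and 1 with 6 libraries. Krt19, higher in eWAT, was at 52.8, 2.32 and 13.6 FPKM there and 0.439, 0.45 and 0.327 in liver. Like Epcam it was highest in ND 1 and ND 3, and the part of epithelial RNA was not tested.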
